A study of Mus musculus with 7 samples.

Results

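The liver mesothelium genes are 10 genes that mark the thin epithelial sheet covering the fetal liver: Wt1, Bnc1, Upk3b, Upk1b, Msln, Podxl, Gpm6a, Lrrn4, Alcam and Krt14. They were taken by name from a list that was chosen with earlier results of these data known. All 10 were found by symbol among the 38924 genes of the count files. They also passed the filter on low counts that left 16226 genes for testing. They were compared in whole fetal liver of the mouse at 12.5 days post coitum, by stranded messenger RNA sequencing of 3 Pcbp2 knockout libraries (replicates 3 to 5) and 4 wild-type libraries (replicates 1 to 4), whose values are listed in the order of their replicate numbers. The labels give no allele, strain, sex, litter or batch, and do not say that each library came from its own animal, so the p-values cover only the spread among these libraries, which may be technical. In whole tissue, fewer mesothelial cells and less RNA per cell cannot be told apart.

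The mesothelium is the outer lining of the organs of the body cavities. In the mouse fetal liver it forms a simple epithelium over the lobes that depends on the transcription factor Wt1, and some of its cells move inward during development and give rise to stellate cells and fibroblasts beneath the capsule. The cells carry a coat of membrane glycoproteins, including uroplakins, mesothelin and podocalyxin, together with keratins that mark them as epithelial.

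Between 31898339 and 42378821 reads were assigned to genes in the knockout libraries and between 32240949 and 44544889 in the wild-type libraries. Pcbp2, the deleted gene, had 1.95 ± 0.486 CPM (counts scaled to library size, with TMM factors) in knockout and 295 ± 86.9 CPM in wild type (SD, n = 3 and n = 4), a log2 fold change of -7.26 ± 0.34 (SE; edgeR adjusted p = 1.29e-05). The liver identity of the tissue was checked on 10 hepatoblast markers, which all had reads in every group and summed to 7313 to 9322 CPM in knockout and 5833 to 12193 CPM in wild type, with none past the threshold in either direction. The 3 with the smallest p, the apolipoprotein Apoa1, the surface protein Dlk1 and the carrier Ttr, had log2 differences of -0.61, -0.32 and -0.30 (edgeR adjusted p = 0.0756, 0.243 and 0.371), and Apoa1 passed with DESeq2 (0.0115), with no filter on low counts (0.0344) and without wild-type replicate 2 (0.0113). Over all tested genes, 5.02% passed an edgeR adjusted p of 0.05, the threshold used throughout, with 1.59% higher and 3.43% lower in knockout, and the median log2 fold change was 0.01.

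Of the 10 mesothelium genes, 1 fell in the knockout livers, 0 rose and 9 did not pass. The gene that fell was Gpm6a. Log2 fold changes ran from -1.02 for Msln to 0.08 for Krt14. The transcription factors Wt1 and Bnc1 had log2 fold changes of 0.00 and -0.15, while the membrane proteins Upk1b, Upk3b and Lrrn4 had values of -0.46, -0.41 and -0.26. In all, 5 of the 10 genes had an unadjusted p under 0.05 with a lower level in knockout, where 11.8% of all tested genes did, and 0 had one with a higher level, where 9.98% did. The median log2 fold change of the 10 genes was -0.22, against 0.01 over all tested genes. The list as a whole was not tested, because its genes were chosen with earlier results of these data known.

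**Figure D1:**
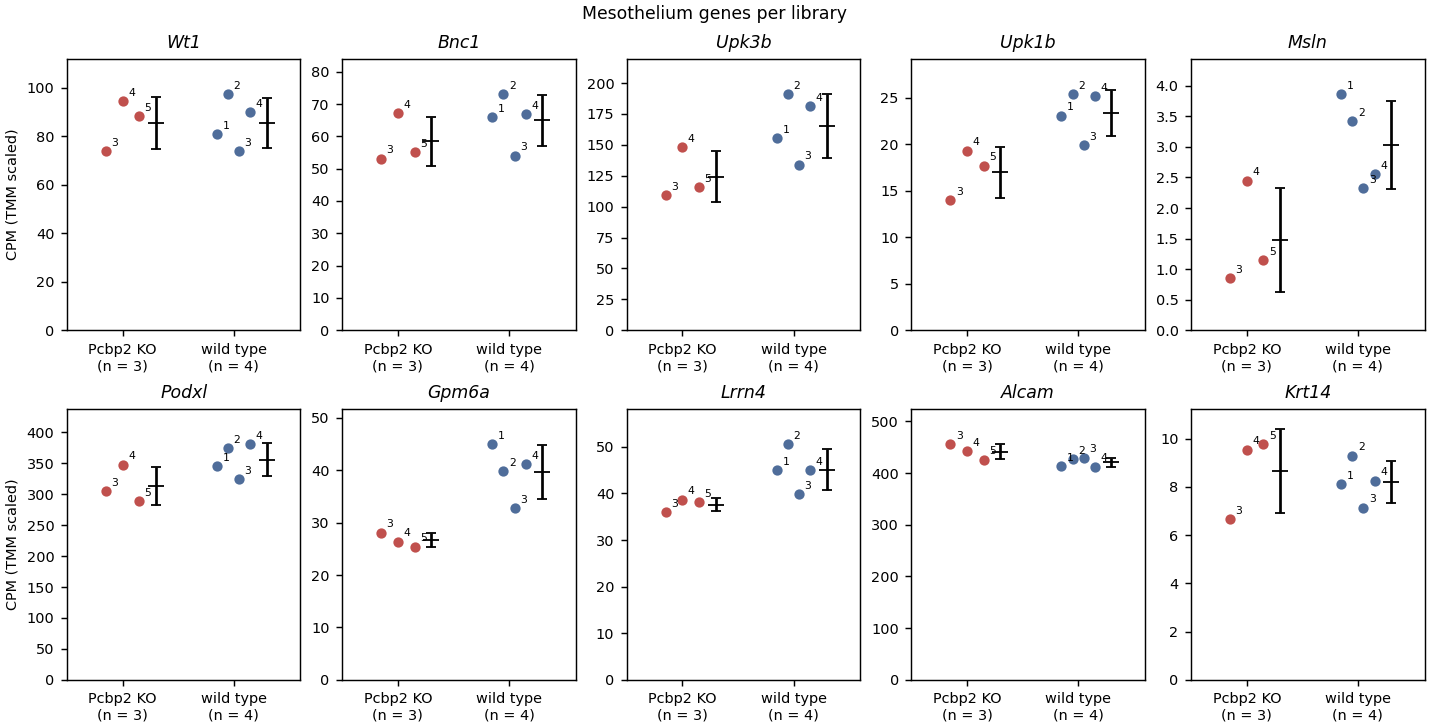
Level of each of the 10 mesothelium genes in every library, in CPM, with Pcbp2 knockout at the left of each panel and wild type at the right; points carry the replicate number, and bars give the mean ± SD of each group. For Gpm6a the 3 knockout points lie between 25.4 and 28.1 CPM and the 4 wild-type points between 32.8 and 45.0 CPM, while for Wt1 the groups overlap.

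Wt1, a zinc finger transcription factor needed for the mesothelium, had 73.8, 94.5 and 88.4 CPM in the 3 knockout libraries, against 80.8, 97.3, 73.9 and 89.9 CPM in the 4 wild-type libraries. The groups overlapped over nearly their whole range. The means were 85.6 ± 10.6 CPM in knockout and 85.5 ± 10.3 CPM in wild type (SD, n = 3 and n = 4), with a log2 fold change of 0.00 ± 0.12 (SE; edgeR adjusted p = 0.994). The sign changed between settings, as the value ran from -0.07 without knockout replicate 4 to 0.12 with total-count scaling. Wt1 (ENSMUSG00000016458.7 in the count files) lies on chromosome 2 from 105126529 to 105173616 in GENCODE M21, which is on the same genome build as mm10.

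Wt1 is also expressed by the gonad, adrenal primordium and kidney that lie near the liver. Of a list of 12 genes of those organs, 8 were tested and 0 passed in either direction, and their summed level ran from 21.8 to 35.02 CPM in knockout and from 18.9 to 38.5 CPM in wild type. The 3 with the smallest p, the factors Lhx9, Pax8 and Six2, had log2 differences of 0.35, -1.10 and 0.84 (edgeR adjusted p = 0.229, 0.325 and 0.399). Nr5a1, which defines the adrenal and gonadal steroid lineage, had 1, 3 and 2 reads in the knockout libraries and 1, 148, 1 and 2 reads in the wild-type libraries. Wild-type replicate 2, which held the 148 reads, was also the wild-type library with the highest Wt1. Without it the log2 fold change of Wt1 was 0.06.

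Bnc1, a zinc finger protein of the basonuclin family found in mesothelium and keratinocytes, had 53.1, 67.1 and 55.2 CPM in the 3 knockout libraries, against 65.9, 73.0, 54.0 and 66.9 CPM in the 4 wild-type libraries. The knockout values lay within or just under the wild-type range, with a log2 difference of -0.15 ± 0.13 (SE; edgeR adjusted p = 0.525). Exons of Bnc1 overlap those of 4833418N17Rik on the other strand, and the labels do not say whether reads were counted by strand. That gene held between 1 and 6 reads per library in each group.

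Gpm6a encodes a membrane glycoprotein best known from neurons and also a marker of liver mesothelium in the mouse. It had 28.1, 26.4 and 25.4 CPM in the 3 knockout libraries, against 45.0, 39.9, 32.8 and 41.2 CPM in the 4 wild-type libraries. Every knockout library lay under every wild-type library, and the knockout values were the more tightly grouped. The means were 26.6 ± 1.35 CPM in knockout and 39.7 ± 5.12 CPM in wild type (SD, n = 3 and n = 4), which gives 0.671 times the wild-type level, or a log2 fold change of -0.58 ± 0.12 (SE; edgeR adjusted p = 0.0258). The call rested on several libraries: the adjusted p was 0.0821 or 0.139 when knockout replicate 4 or 5 was left out, and 0.0512 or 0.0710 when wild-type replicate 1 or 4 was. It was also lost with total-count scaling, at 0.0563.

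Because Gpm6a is abundant in nervous tissue, it was set beside 10 markers of neurons and glia. Of these 0 passed in either direction, and they summed to 71.7, 78.6 and 90.9 CPM in the 3 knockout libraries, against 91.8, 130.5, 48.2 and 61.2 CPM in the 4 wild-type libraries. Stmn2, a tubulin-binding protein of growing axons, and Tubb3, the neuronal beta-tubulin, had log2 differences of -0.60 and -0.75 (edgeR adjusted p = 0.476 and 0.590). Among the knockout libraries, replicate 3 had the lowest neural sum and the highest Gpm6a, and replicate 5 the highest sum and the lowest Gpm6a. Among the wild-type libraries, replicate 3 was lowest in both, while replicate 2, with the highest sum, had less Gpm6a than replicates 1 and 4. The part of nerve cells in the Gpm6a difference was not tested.

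Upk3b, a uroplakin of the cell surface and the most abundant of the uroplakin and mesothelin genes here, had 109, 148 and 116 CPM in the 3 knockout libraries, against 155, 191, 134 and 181 CPM in the 4 wild-type libraries. Knockout replicate 4 lay above wild-type replicate 3, so the groups overlapped. Upk3b averaged 124 ± 20.7 CPM in knockout and 165 ± 25.8 CPM in wild type (SD, n = 3 and n = 4), a log2 difference of -0.41 ± 0.15 (SE; edgeR adjusted p = 0.134).

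Upk1b, the tetraspanin uroplakin, had 14.0, 19.3 and 17.7 CPM in the 3 knockout libraries, against 23.1, 25.4, 19.9 and 25.1 CPM in the 4 wild-type libraries. The groups did not overlap, although knockout replicate 4 and wild-type replicate 3 came close. The log2 difference was -0.46 ± 0.14 (SE; edgeR adjusted p = 0.0928). Upk1b passed with DESeq2 as an alternative, at an adjusted p of 0.0301, and in edgeR with the replicate number as a block, at 0.0306.

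Msln, which encodes the GPI-anchored glycoprotein mesothelin, was the least abundant of the 10 genes, with 28, 111 and 40 reads in the knockout libraries and 114, 140, 85 and 111 reads in the wild-type libraries. These reads correspond to 0.847, 2.45 and 1.14 CPM in the 3 knockout libraries, against 3.86, 3.42, 2.33 and 2.55 CPM in the 4 wild-type libraries. Knockout replicate 4 lay within the wild-type range while the other knockout libraries lay under it. The log2 difference was -1.02 ± 0.36 (SE; edgeR adjusted p = 0.135), and it was -1.60 without knockout replicate 4 (edgeR adjusted p = 0.0365) and -0.74 without knockout replicate 3 (0.270).

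Lrrn4, a membrane protein with leucine-rich repeats, had 36.0, 38.7 and 38.1 CPM in the 3 knockout libraries, against 45.0, 50.6, 39.9 and 45.0 CPM in the 4 wild-type libraries. The groups did not overlap, with a log2 difference of -0.26 ± 0.10 (SE; edgeR adjusted p = 0.174). Together with Gpm6a and Upk1b, 3 of the 10 mesothelium genes lay wholly lower in knockout, against 10.8% of all tested genes, and 0 lay wholly higher, against 9.83%.

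In the authors' deposited table, whose columns are named as DESeq2 names them, 3 of the 10 genes had an adjusted p under 0.05 with a lower level in knockout, against 6.86% of the genes in it, and 0 a higher level, against 4.06%. In the authors' deposited table the log2 fold changes of these 3 were -0.57 for Gpm6a (adjusted p = 0.000592), -0.46 for Upk1b (0.0287) and -0.94 for Msln (0.0390). Upk3b had -0.41 in the authors' deposited table, with an adjusted p of 0.0678.

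Promoter sequence from RefSeq (build GRCm38.p6) was on hand for 6 of the 10 genes, and the 250 bases before the annotated start are shown 5′ to 3′ for 3 of them: Gpm6a, the gene that fell, Upk3b, the most abundant uroplakin, and Bnc1, a transcription factor that did not pass. Gpm6a has a pair of annotated starts, and the one nearer to the GENCODE gene is given (chr8:54954478-54954727, plus strand). Upk3b is from chr5:136038246-136038495 on the plus strand, and Bnc1 from chr7:81992300-81992549 on the minus strand. Capitals mark a match to the TATA box TATAAA on the opposite strand.
Gpm6a: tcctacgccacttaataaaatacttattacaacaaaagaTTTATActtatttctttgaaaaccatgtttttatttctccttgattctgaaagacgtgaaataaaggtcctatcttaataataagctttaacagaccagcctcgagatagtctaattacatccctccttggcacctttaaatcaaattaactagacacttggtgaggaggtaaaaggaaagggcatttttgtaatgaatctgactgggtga
Upk3b: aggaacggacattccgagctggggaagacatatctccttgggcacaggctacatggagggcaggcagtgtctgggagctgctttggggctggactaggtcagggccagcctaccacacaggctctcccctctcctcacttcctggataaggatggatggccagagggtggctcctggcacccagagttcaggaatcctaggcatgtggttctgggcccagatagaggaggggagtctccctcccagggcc
Bnc1: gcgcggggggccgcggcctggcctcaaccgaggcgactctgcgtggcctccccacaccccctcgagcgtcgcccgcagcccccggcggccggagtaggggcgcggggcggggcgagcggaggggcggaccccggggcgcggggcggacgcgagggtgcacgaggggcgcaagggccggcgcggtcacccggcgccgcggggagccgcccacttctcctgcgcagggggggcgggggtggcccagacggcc

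The 3 windows differ most in base composition, with 33.6% G and C for Gpm6a, 60.8% for Upk3b and 83.6% for Bnc1, against a median of 52.4% over 32851 windows of the same length. The only match to TATAAA among the windows of the 6 genes, searched on both strands, was the one marked in Gpm6a, and 12.4% of all windows hold one. The WT1 and EGR element GCGTGGGNG was searched on both strands too and had no match in these windows, while 1.65% of all windows hold one. A missing match says only that these letters are not in the window.

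Podxl encodes podocalyxin, a sialomucin of the apical membrane that mesothelium shares with endothelium, podocytes and blood progenitors. It had 305, 348 and 289 CPM in the 3 knockout libraries, against 345, 374, 324 and 381 CPM in the 4 wild-type libraries. Knockout replicate 4 lay within the wild-type range, and the log2 difference was -0.18 ± 0.11 (SE; edgeR adjusted p = 0.357).

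Of 10 endothelial markers 3 rose and 0 fell, where 1.59% of all tested genes rose and 3.43% fell. Emcn, a sialomucin of capillaries and veins, rose by 1.0 ± 0.15 on the log2 scale (SE; edgeR adjusted p = 0.00676), Pecam1, a junctional adhesion molecule, by 0.79 (0.0162) and Cdh5, the endothelial cadherin, by 0.64 (0.0325). The markers summed to between 298 and 382 CPM in knockout and between 219 and 289 CPM in wild type, so the groups did not overlap. Their number past the threshold was 1 without knockout replicate 5 and 2 without knockout replicate 3 or 4 or wild-type replicate 1 or 4. It was 5 with total-count scaling or with DESeq2, and 1 with libraries scaled to Wt1. How the endothelial share of Podxl reads moved was not tested.

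Alcam, an adhesion molecule of the immunoglobulin superfamily used to isolate mesothelial cells of the mouse liver and found on other cells too, had 456, 443 and 426 CPM in the 3 knockout libraries, against 414, 427, 430 and 412 CPM in the 4 wild-type libraries. It was the steadiest of the 10 genes, with a coefficient of variation of 3.42% in knockout and 2.11% in wild type. The groups overlapped, and the log2 difference was 0.07 ± 0.09 (SE; edgeR adjusted p = 0.694).

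Mesothelial cells give rise to stellate cells, and 10 stellate and perivascular markers gave 0 members higher and 1 lower. Over all tested genes 1.59% were higher and 3.43% lower. The member that fell was Lrat, the enzyme that stores vitamin A as its ester, with a log2 fold change of -2.23 ± 0.41 (SE; edgeR adjusted p = 0.0161, but 0.0790 without knockout replicate 5). Pdgfra and Rgs5, a growth factor receptor and a pericyte signalling regulator, had log2 differences of 0.32 and 0.42 (edgeR adjusted p = 0.204 and 0.224). The list summed to between 665 and 757 CPM in knockout and between 566 and 773 CPM in wild type.

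Krt14, a type I keratin of basal epithelial cells that the fetal mesothelium also carries, had 6.65, 9.55 and 9.78 CPM in the 3 knockout libraries, against 8.13, 9.30, 7.14 and 8.26 CPM in the 4 wild-type libraries. The knockout values spanned the wild-type range on both sides. The log2 difference was 0.08 ± 0.17 (SE; edgeR adjusted p = 0.824), and it was -0.01 without knockout replicate 5. Keratins are a family of similar genes. Reads aligned to more than 1 place were reported in a separate summary line. They made up 11.3% to 14.7% of reads in the knockout libraries and 15.2% to 19.6% in the wild-type libraries. How many of those belong to keratins is not given.

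Among 8 genes of epidermis and other stratified epithelium, 6 were tested, 1 rose and 0 fell, against 1.59% and 3.43% of all tested genes. The gene that rose was Krt5, the type II keratin that pairs with Krt14 in basal epithelium. Krt5 had 2.72, 4.21 and 11.4 CPM in the 3 knockout libraries, against 0.474, 0.659, 0.274 and 1.33 CPM in the 4 wild-type libraries. All knockout libraries lay above all wild-type ones, but knockout replicate 5 stood highest. On the log2 scale Krt5 rose by 3.12 ± 0.56 (SE; edgeR adjusted p = 0.0144), and it was 2.32 without knockout replicate 5 (edgeR adjusted p = 0.0701). Perp and Sfn, of desmosomes and keratinocyte growth control, had log2 differences of 0.62 and 1.67 (edgeR adjusted p = 0.0765 and 0.0846). The list summed to between 18.1 and 31.9 CPM in knockout and between 8.89 and 14.4 CPM in wild type, and the untested Krtdap had at most 1 read in any library.

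**Figure D2:**
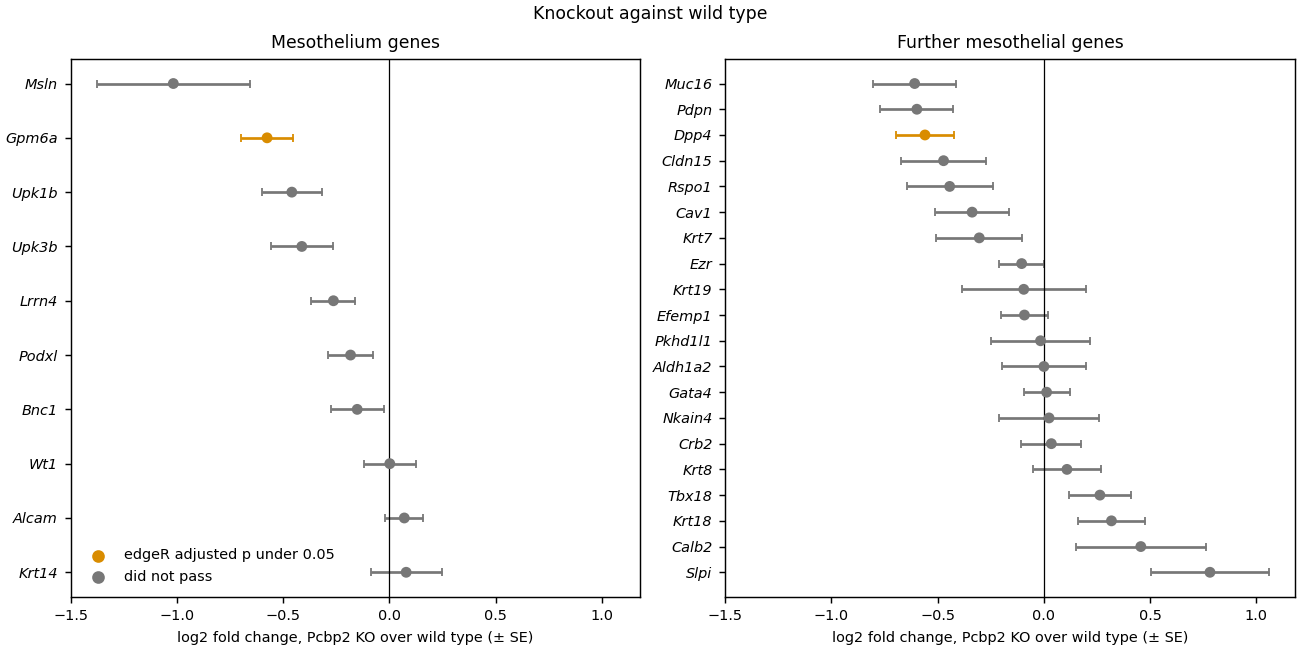
Log2 fold change of Pcbp2 knockout over wild type with its standard error, for the 10 mesothelium genes (left) and 20 further mesothelial genes (right), with genes that passed an edgeR adjusted p of 0.05 in orange. Gpm6a at the left (-0.58) and Dpp4 at the right (-0.56) are the genes that passed, and Wt1 lies at 0.00.

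Per kilobase of exon, the order of the 10 genes was led by Alcam (62.0 CPM per kilobase in knockout and 59.1 in wild type), Podxl (57.2 and 64.9) and Upk3b (35.2 and 46.8). Wt1 (13.8 in knockout and 13.8 in wild type), Bnc1 (12.6 and 14.0), Lrrn4 (10.1 and 12.1), Gpm6a (8.28 and 12.3) and Upk1b (8.13 and 11.2) formed a middle group whose neighbours lay close together. Krt14 (4.93 and 4.67) and Msln (0.483 and 0.992) came last. Gpm6a stood next to Upk1b in knockout and next to Lrrn4 in wild type. The lengths came from GENCODE M21, whose gene versions differ from those counted for Wt1, Alcam and Gpm6a, among others. Close ranks are therefore uncertain.

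The libraries also differed together within each genotype. Wild-type replicate 3 was the lowest wild-type library for 9 of the 10 genes, all but Alcam. Knockout replicate 3 was the lowest knockout library for 7 of the 10, all but Gpm6a, Podxl and Alcam. The share of all tested genes with the same lowest library was not counted, so these counts may not be particular to mesothelium. The wild-type libraries ranked as they did for Wt1 in 4 of the 9 other genes (Upk3b, Upk1b, Krt14 and Bnc1), where 5.04% of all tested genes shared that order. The knockout libraries did so in 5 of the 9 (Upk3b, Upk1b, Msln, Lrrn4 and Bnc1), where 27.4% of all tested genes did.

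**Figure D3:**
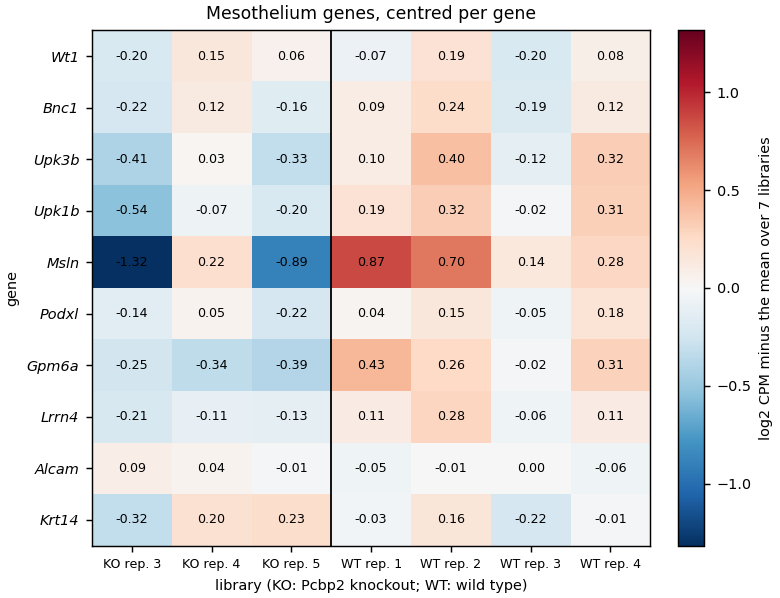
Log2 CPM of each mesothelium gene (rows) in each library (columns, Pcbp2 knockout before the line and wild type after it), minus the mean of that gene over the 7 libraries; the colour bar gives the same unit. Msln has the widest span, from -1.32 in knockout replicate 3 to 0.87 in wild-type replicate 1, and Alcam the narrowest.

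Each gene was therefore also set against Wt1 in its own library, a ratio that does not depend on the scaling between libraries and that was chosen after the values were seen. Upk3b stood at 1.48, 1.56 and 1.31 times the Wt1 level in the 3 knockout libraries, against 1.92, 1.96, 1.81 and 2.01 times in the 4 wild-type libraries. The overlap seen in CPM was gone, and the coefficient of variation in wild type was 4.47% for the ratio and 15.6% for the CPM.

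The Upk1b ratio to Wt1 was 0.189, 0.204 and 0.200 in the 3 knockout libraries, against 0.285, 0.261, 0.270 and 0.280 in the 4 wild-type libraries. The coefficient of variation of this ratio was 3.93% in knockout and 3.99% in wild type, and the mean ratios were 0.198 ± 0.00778 and 0.274 ± 0.0109 (SD, n = 3 and n = 4). For Gpm6a the mean ratio was 0.316 ± 0.0562 in knockout and 0.467 ± 0.0635 in wild type. The ratio did not narrow the spread of every gene. For Gpm6a the coefficient of variation was 17.8% for the ratio and 5.06% for the CPM in knockout, and 13.6% and 12.9% in wild type. For Alcam it was 15.8% and 3.42% in knockout, and 12.8% and 2.11% in wild type.

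Of the 9 ratios, 6 did not overlap between the groups and were lower in knockout, those of Upk3b, Upk1b, Msln, Gpm6a, Lrrn4 and Bnc1, and 0 lay wholly higher. Over all tested genes 6.88% of ratios to Wt1 lay wholly lower and 6.87% wholly higher. Wt1 is itself a mesothelium gene and was chosen with its values known. It also ranked the libraries as several of the 9 genes did, so these shares are not a like comparison for the 9 ratios. The ratios of Podxl, Alcam and Krt14 overlapped. With libraries scaled to Wt1, the edgeR fit over all genes called 0 of the 9 genes, as the adjusted p was 0.140 for Gpm6a, 0.124 for Upk1b, 0.123 for Msln and 0.220 for Upk3b.

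**Figure D4:**
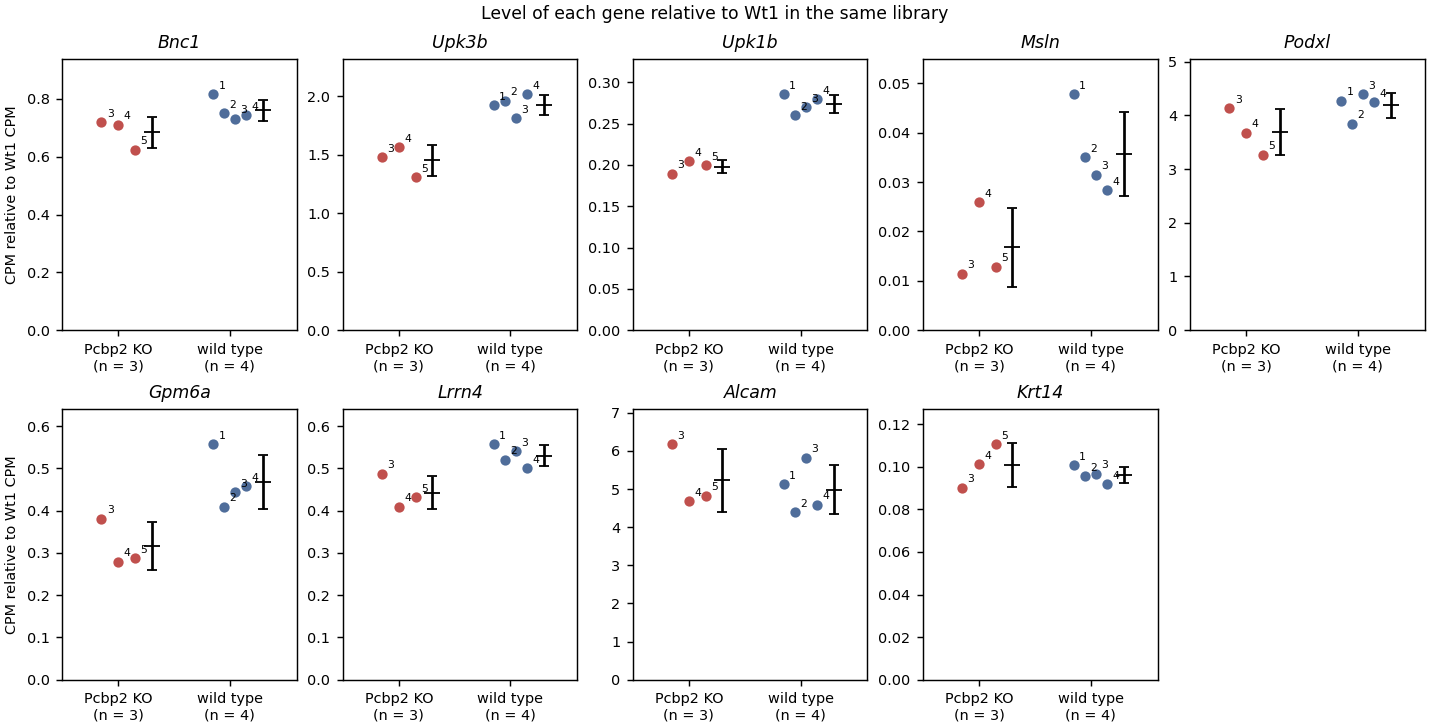
Level of each of 9 mesothelium genes divided by the level of Wt1 in the same library, with Pcbp2 knockout at the left and wild type at the right of each panel; points carry the replicate number and bars give the mean ± SD. For Upk1b the 3 knockout points lie between 0.189 and 0.204 and the 4 wild-type points between 0.261 and 0.285.

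In a list of 20 further genes known from mesothelium 1 gene fell, 0 rose and 19 did not pass, with a median log2 fold change of -0.05. Over all tested genes 3.43% fell and 1.59% rose. The gene that fell was Dpp4, a surface peptidase, with 23.6 ± 3.21 CPM in knockout and 34.8 ± 4.62 CPM in wild type (SD, n = 3 and n = 4) and a log2 fold change of -0.56 ± 0.14 (SE; edgeR adjusted p = 0.0453). Its call ended when any library other than wild-type replicate 2 was left out, with an adjusted p of up to 0.197, with total-count scaling (0.0716) and with libraries scaled to Wt1 (0.208).

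Of the 20 genes 9 had log2 differences above 0 and 11 below it, and 1 lay wholly higher and 3 wholly lower in knockout, against 9.83% and 10.8% of all tested genes. The gene that lay wholly higher was the protease inhibitor Slpi, with a log2 difference of 0.78 ± 0.28 (SE; edgeR adjusted p = 0.133). The genes that lay wholly lower were Dpp4, Pdpn and Muc16. Of this list, the genes named beside Dpp4 were chosen after their values were seen. Pdpn, the sialoglycoprotein podoplanin, had a log2 difference of -0.60 ± 0.17 (SE; edgeR adjusted p = 0.0764), and Muc16, a large membrane mucin that binds mesothelin, one of -0.61 ± 0.20 (SE; edgeR adjusted p = 0.106). Gata4, a transcription factor of mesothelium and liver mesenchyme, had 146 ± 8.89 CPM in knockout and 145 ± 16.7 CPM in wild type (SD, n = 3 and n = 4; log2 difference 0.01). Aldh1a2, which makes retinoic acid in mesothelium, likewise had a log2 difference of 0.00 ± 0.20 (SE; edgeR adjusted p = 0.999).

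Genes of the transition from mesothelium to mesenchyme gave 2 of 15 higher and 0 lower, with a median of 0.27. That compares with 1.59% higher and 3.43% lower over all tested genes. Twist1, a basic helix-loop-helix factor of mesenchyme, had 43.7 ± 3.05 CPM in knockout and 27.0 ± 2.47 CPM in wild type (SD, n = 3 and n = 4), a log2 fold change of 0.69 ± 0.11 (SE; edgeR adjusted p = 0.00759, but 0.0608 without knockout replicate 5). Acta2, smooth muscle actin, had 134 ± 0.723 CPM in knockout and 88.8 ± 20.3 CPM in wild type (log2 0.59 ± 0.15; edgeR adjusted p = 0.0483). The Acta2 call ended when any library other than wild-type replicate 2 was left out, with an adjusted p of up to 0.155, and with a filter of 5 CPM in 3 libraries (0.0506). Scaled to Wt1, the adjusted p was 0.0823 for Twist1 and 0.0970 for Acta2. The other 13 genes, among them Snai1, Snai2, Zeb1 and the epithelial cadherin Cdh1 (log2 difference 0.37), did not pass. The list thus mixes epithelial and mesenchymal genes, and its median gives no direction of a transition.

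**Figure D5:**
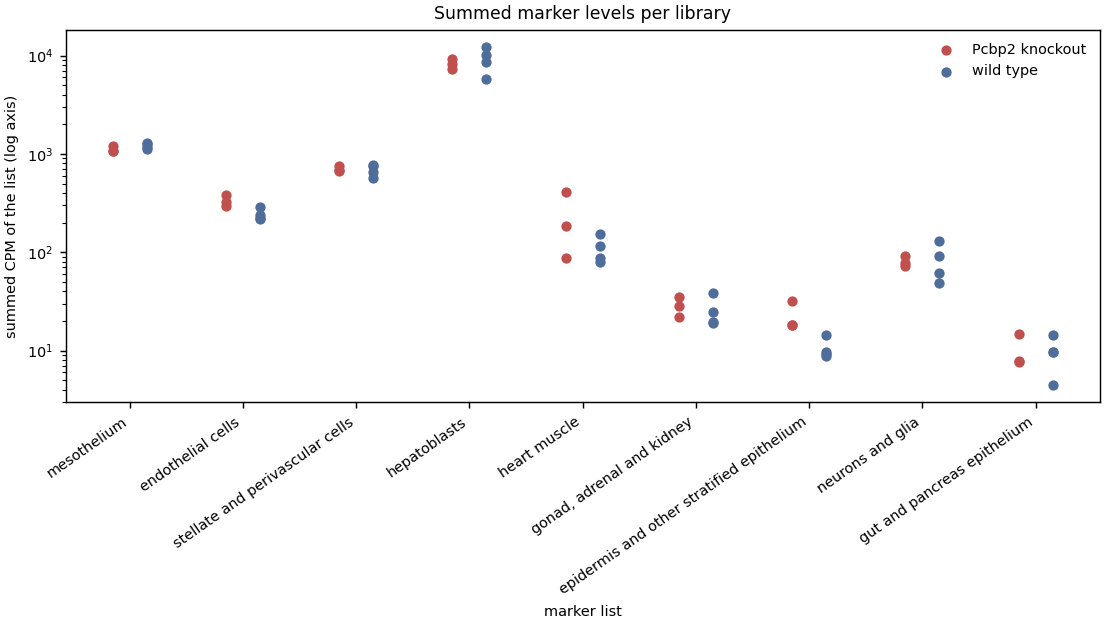
Summed CPM of the mesothelium genes and of 8 marker lists of other cell types in each library, on a log axis, with Pcbp2 knockout at the left of each pair and wild type at the right. The groups overlap for the mesothelium sum and do not overlap for the endothelial and the stratified epithelium sums, which are higher in knockout.

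Summed over the 10 genes, the level ran from 1066.0 to 1196 CPM in knockout and from 1117 to 1291 CPM in wild type. The largest parts of this sum were Alcam (means of 442 CPM in knockout and 421 CPM in wild type) and Podxl (314 and 356 CPM). Both are found on other cells too, so the sum mostly follows genes that are not particular to mesothelium. Markers of heart muscle, whose surface layer shares mesothelial genes, were uneven between libraries. Of 10 heart muscle markers 2 rose and 0 fell, where 1.59% of all tested genes rose and 3.43% fell. The list summed to 414, 88.2 and 183 CPM in the 3 knockout libraries, against 79.2 to 154 CPM in wild type. The 2 that rose were Myh6, the atrial myosin heavy chain (log2 5.39; edgeR adjusted p = 0.00871), and Nppa, the atrial natriuretic peptide (edgeR adjusted p = 0.0104), which had at most 2 reads in any wild-type library; Myl4, an atrial myosin light chain, did not pass (log2 1.85; 0.0625). With limma-voom the adjusted p was 0.0868 for Myh6 and 0.0809 for Nppa. Knockout replicate 3, with the highest heart sum, had the lowest Wt1, Upk3b, Upk1b and Msln of the knockout libraries. Without it the log2 fold change was -0.33 for Upk3b, -0.34 for Upk1b, 0.10 for Wt1 and -0.62 for Gpm6a, and that of Myh6 was 4.06. Whether these marker reads came from heart tissue was not tested, nor was the part of heart tissue in the other mesothelium values. Of 8 gut and pancreas genes 6 were tested and 0 passed, with sums of 7.68 to 14.8 CPM in knockout and 4.43 to 14.2 CPM in wild type. The 3 with the smallest p, Cpa1, Cdx2 and Cldn6, had log2 differences of -1.69, -2.18 and 0.73 (edgeR adjusted p = 0.0963, 0.219 and 0.270).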

How the data were processed

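Per the labels' protocols, the libraries were TruSeq stranded ones made from Trizol-extracted total RNA. The submitters' processing notes list the build mm10 and, without settings, the tools DESeq2, DESeq, HTSeq, TopHat2 and cutadapt 1.4.2. The authors deposited a file of raw counts for each library, followed by 5 summary lines that were left out of library sizes. Reads in no gene made up 6.75% to 7.61% in knockout and 4.89% to 5.94% in wild type. Those aligned to more than 1 place made up 11.3% to 14.7% in knockout and 15.2% to 19.6% in wild type. Ambiguous reads made up 0.447% to 0.536% per library. The TMM factors ran from 1.04 to 1.07 in knockout and from 0.917 to 1.02 in wild type. Apart from ambiguous reads, these ranges did not overlap between the groups. The part of these differences in the gene values was not tested. The authors' deposited table gives a baseline signal (mean normalized count), a log2 fold change, a Wald score and p-values. The sign of its log2 fold change was checked against the counts.

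Counts were fitted in R 4.3.3 with edgeR 4.0.16 (filterByExpr, TMM, quasi-likelihood test, group as the only term, 7 libraries), adjusted by Benjamini-Hochberg over all 16226 tested genes. The fits were tested on simulated data. Alternatives were RLE and total-count scaling, globin genes left out, other filters on low counts, limma-voom (limma 3.58.1), DESeq2 1.42.0, each library left out, a replicate block and, added after seeing the data, scaling to Wt1. A count of 0 allows up to 3 reads, or 0.0662 to 0.102 CPM, for counting error only. Exon lengths and coordinates came from GENCODE M21, promoters from RefSeq.

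The 10 mesothelium genes and the lists were chosen with earlier results of these data known, so no list was tested as a whole. The text names all 10 genes, called members of the further mesothelial and transition lists, and the members with the smallest p of the marker lists, apart from 1 gene that is not reported here. No library pair had counts that agreed within sampling noise.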

Additional observations from a re-analysis of the deposited data

Results flagged for a closer look

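In the wild-type group of 4, 1 library stood apart from the others in 6 of 52 sets of values looked at; chance gives about 1 in 20. Pcbp2 had 165 CPM in wild-type replicate 1, against 329 to 347 CPM in the other wild-type libraries. Dpp4 had 41.7 CPM in wild-type replicate 1, against 32.3 to 32.6 CPM. Dlk1, a hepatoblast surface protein with a log2 difference of -0.32 (edgeR adjusted p = 0.243), had 699.9 CPM in wild-type replicate 1, against 871 to 906 CPM. Acta2 had 119 CPM in wild-type replicate 2, against 75.3 to 82.8 CPM. Sfn had 2.15 CPM in wild-type replicate 2, against 0.677 to 0.874 CPM. Myh6 had 0.782 CPM in wild-type replicate 4, against 0.220 to 0.305 CPM. None of these was among the 10 mesothelium genes or their ratios to Wt1.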

How the results depend on the processing

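The 10 mesothelium genes gave 0 members higher under all 16 alternatives. The number lower, 1 as reported, was 0 with total-count scaling and with libraries scaled to Wt1, 3 with DESeq2 and 2 with the replicate block, and ran from 0 to 1 when each library was left out. It was 0 when knockout replicate 5 or wild-type replicate 1 or 4 was left out; without knockout replicate 4 Gpm6a was lost and Msln passed. Gpm6a passed under 10 of the 16 alternatives, with adjusted p from 0.000619 to 0.140. The median of the 10 ran from -0.28 to -0.19 with a library left out and was -0.10 with total-count scaling, which moved the median of all genes to 0.14. Over all genes, those higher numbered 258 and those lower 556. Those higher numbered 651 with total-count scaling, 630 with DESeq2, 852 with the replicate block and 110 scaled to Wt1, and ran from 24 to 418 with a library left out. Those lower numbered 1056 with DESeq2, 1204 with the replicate block and 195 scaled to Wt1, and ran from 116 to 753. The cause was not tested. The replicate block uses the numbers 3 and 4 of the titles, which occur in both groups; libraries of the same number deviated together (correlation across genes 0.373 and 0.341), but the labels do not say that a number marks a shared litter or day. With the block the adjusted p was 0.0306 for Upk1b, which passed beside Gpm6a, 0.0627 for Dpp4 and 2.86e-06 for Apoa1 (log2 -0.85). Pdgfra, Rgs5, Ttr, Myl4, Perp, Sfn, Cpa1, Cdx2 and Cldn6 also passed with it. The further mesothelial list then had 1 gene higher and 0 lower, and 6 transition, 4 heart muscle, 4 stratified epithelium and 2 neural markers were higher. Signs reversed for Wt1 (-0.0037 with RLE, -0.0059 with no filter on low counts, -0.0030 with DESeq2, and from -0.075 to 0.097 with a library left out), for Krt14 (-0.014 to 0.24 with a library left out), for Gata4 (-0.023 with the replicate block, -0.064 to 0.057 with a library left out), for Aldh1a2 (-0.0054 with RLE, -0.0062 with no filter on low counts, -0.0048 with DESeq2, -0.012 scaled to Wt1, -0.13 to 0.17 with a library left out), for Six2 (-0.082 with the replicate block, -0.16 to 1.18 with a library left out) and for Tubb3 (0.63 with the replicate block). Msln had too few reads for the filter of 5 CPM in 3 libraries. Depth limits Msln most, at 28 to 140 reads a library.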
